A study of Mus musculus with 3 samples.

Results

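Plasma cells and plasmablasts, the antibody-secreting cells of the B lineage, were examined in single-cell RNA sequencing of peripheral blood mononuclear cells (PBMCs) from young, aged and aged-GA mice. A cell was counted as a plasma cell when it held at least 10 unique molecular identifiers (UMIs, counted RNA molecules) of Jchain and at least 3 of Mzb1, Xbp1, Derl3 and Tnfrsf17 together. It also had to have at least 200 detected genes, at most 7.5% mitochondrial UMIs and less than 50% haemoglobin UMIs. This rule found 128 cells among the 29082 barcodes that passed the 3 quality filters. Of these, 4 came from young, 72 from aged and 52 from aged-GA mice. The cells were chosen by their UMI counts of these marker genes, so the levels of these genes and the contrast with other B cells are a description and were not tested.

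The young mice were 8 weeks old, the aged mice were 16 months old, and the aged-GA mice were 16 months old and had received glycyrrhizic acid (GA), a triterpenoid of liquorice root, for 1 month. Per the study's methods the mice were female C57BL/6, GA was injected into the tail vein every other day, and controls received PBS, whereas the labels give their treatment as none. Each group was 1 library made with 10x Genomics 3′ chemistry, and the blood came from several mice per group, but how they were combined into the library is not stated in the sources used here, so all differences between groups are between 3 libraries without replicates and carry no p-value. The libraries held 10842 barcodes and 58894294 UMIs for young, 16038 and 82260961 for aged, and 17332 and 98155671 for aged-GA mice. The barcodes that passed the filters had a median of 4542, 3602 and 4386.5 UMIs, so the aged-GA library was read more deeply per cell than the aged one.

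Plasma cells arise from activated B cells that stop displaying a B cell receptor and instead release antibody. They enlarge the endoplasmic reticulum (ER), where chains of antibody are translocated, folded, glycosylated and joined, and the transcription factors Blimp-1 (Prdm1), Irf4 and Xbp1 drive this switch. Plasmablasts are the early, still dividing form that travels in blood to bone marrow or to mucosal tissue, and those that make IgA join it into dimers with the J chain and supply the gut and other mucosa.

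Before the results, 2 sets of cells that carried RNA of other cell types need description. Gene levels below leave out the first set unless stated otherwise, and the shares of plasma cells are given with and without both. The first set was 16 cells, all in the aged library, with at least 5% haemoglobin UMIs and at least 20 UMIs of the neutrophil and monocyte genes S100a8, S100a9 and Lyz2. These limits were set after the values were seen. The 16 barcodes, called mixed-content below, were small for plasma cells, with 3942 to 9314 UMIs and a median of 4409.5, and 26.1% to 41.0% of their UMIs were haemoglobin. Their Jchain counts lay near the threshold of the rule, at 10 to 46 UMIs with a median of 15. All 16 were of IgA kappa type, and in 12 of them the light chain segment Igkv1-110 was detected, against 8 of the other 112 plasma cells. Igkv1-110 was the leading variable light chain segment in 11 of the 16 and in 5 of the other 112. A variable heavy chain segment was detected in none of the 16 and in 101 of the other 112. The mixed-content barcodes, chosen by haemoglobin, thus resembled each other in the light chain segment and in the lack of a heavy one, at a low depth. Another 147 aged barcodes that were not plasma cells passed the same limits on haemoglobin and neutrophil RNA, and 5 of them had 10 or more Igha UMIs, of which 3 held Igkv1-110. The part of free RNA or of joined cells in these barcodes was not tested. The group left after removing them was 56 aged cells, with the 4 young and 52 aged-GA cells untouched.

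**Figure D1:**
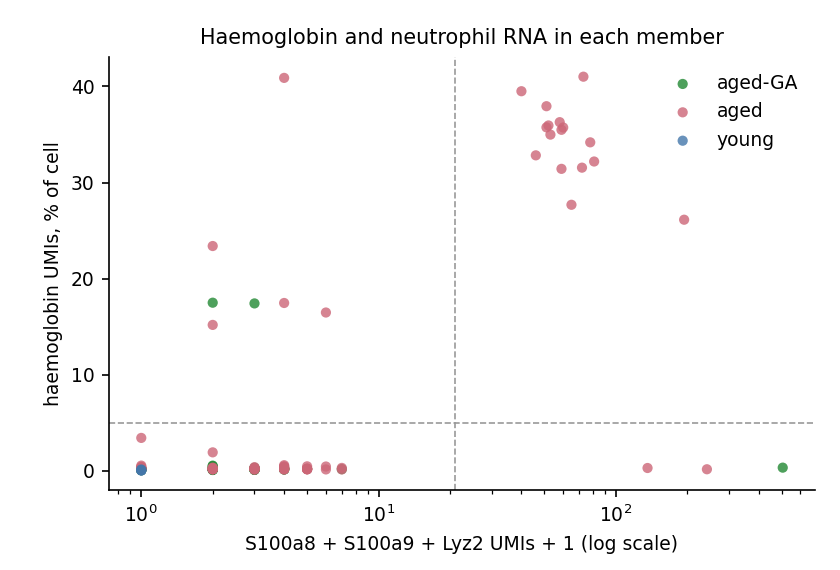
Each point is 1 plasma cell, with the summed UMIs of S100a8, S100a9 and Lyz2 plus 1 on a log axis and haemoglobin UMIs as percent of the cell, coloured by library, and dashed lines at the limits of 20 UMIs and 5%. The upper right holds the 16 mixed-content barcodes, all from the aged library, with 26.1% to 41.0% haemoglobin.

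The second set was cells with 2 or more UMIs of the T cell receptor subunits Cd3d, Cd3e and Cd3g. They were 2 of 4 young cells, 13 of 56 aged cells (23.2%) and 18 of 52 aged-GA cells (34.6%), and their median Cd3 count was 9, 13 and 12 UMIs, while the other cells had 0 or 1. In the aged library Cd3d was at 291 CPM (counts scaled to a common total per group of cells) in this set and at 3.59 CPM in the rest, and in the aged-GA library at 321 and 13.0 CPM. This contrast follows from the Cd3 limit that defined the set. Trbc2, the constant chain of the T cell receptor, was not used by the limit and was at 638 against 8.98 CPM and 447 against 18.5 CPM. Scrublet, which scores barcodes by their likeness to simulated doublets, marked 2 aged and 2 aged-GA cells of this set and no other plasma cell. Cd3 UMIs also occurred in B-lineage barcodes outside the rule. Among barcodes with Cd79a, Cd79b and Ms4a1 that were not plasma cells, the share with 2 or more Cd3 UMIs was 12.7% in the young, 6.43% in the aged and 11.2% in the aged-GA library. Whether a T cell shared the droplet was not tested beyond the Scrublet score.

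Compared with young mice, aged mice had a larger share of plasma cells in blood, and aged-GA mice lay between them. The share was 0.0477% in young (4 of 8383, exact binomial 95% interval 0.0130 to 0.122%), 0.756% in aged mice (72 of 9521, 0.592 to 0.951%) and 0.465% in aged-GA mice (52 of 11178, 0.348 to 0.610%). These and all later intervals cover counting error only, and not the differences between mice or preparations. The log2 ratio of aged over young shares was 3.99 (2.57 to 5.90), and that of aged-GA over aged was -0.70 (-1.24 to -0.17). Without the mixed-content barcodes the aged share was 0.588% (0.445 to 0.763%) and the log2 ratio of aged-GA over aged was -0.34 (-0.91 to 0.23), an interval that spans 0. Without the Cd3-positive cells the shares were 0.0239%, 0.567% and 0.304%, and without both sets they were 0.0239%, 0.452% and 0.304%, with a log2 ratio of aged-GA over aged of -0.57 (-1.26 to 0.11). The order young, aged-GA, aged was the same in each of these counts, but in these counts the aged-GA and aged libraries were separated beyond counting error only while the mixed-content barcodes were kept. With at least 20 Jchain UMIs per cell the log2 ratio of aged-GA over aged was -0.45 (-1.04 to 0.13), which also spans 0.

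**Figure D2:**
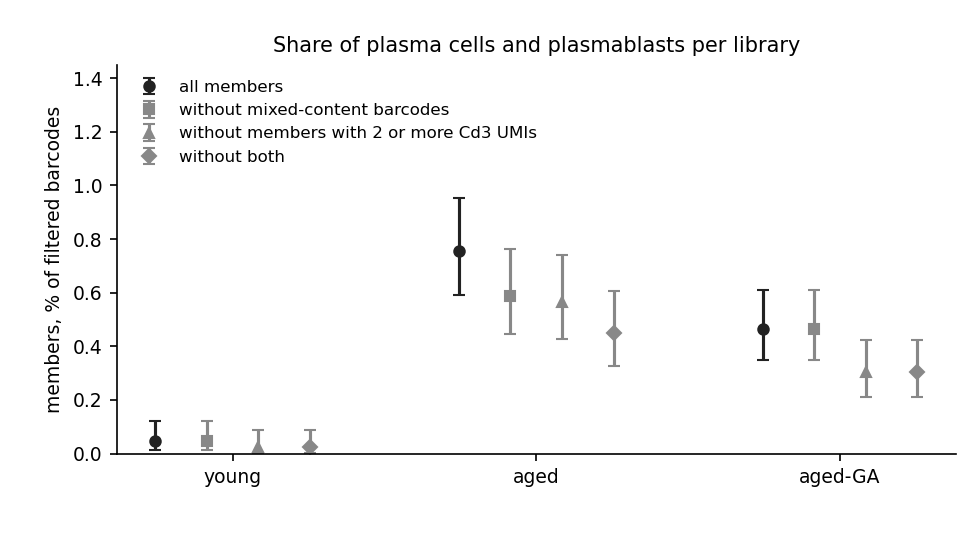
Plasma cells as percent of filtered barcodes in each library, for all cells and without the mixed-content barcodes, the cells with 2 or more Cd3 UMIs, or both; bars are exact binomial 95% intervals. The young share of all cells is 0.0477%, far below the aged share of 0.756% and the aged-GA share of 0.465%, and the aged and aged-GA intervals overlap.

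Just inside the threshold on Jchain, with 10 to 19 UMIs, were 1 young, 16 aged and 4 aged-GA cells. Just outside it, with 7 to 9 Jchain UMIs and the same marker sum, were 0, 3 and 2 barcodes, and with 1 to 9 there were 3, 64 and 85. No barcode had 10 or more Jchain UMIs with fewer than 3 UMIs of the other markers. A further 1 aged-GA barcode met the marker rule and failed a quality filter. No plasma cell barcode was shared between libraries, although 50 to 62 of all deposited barcodes were shared between each pair of libraries.

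Jchain, the chain that joins IgA and IgM into polymers, was used by the rule, so its levels only describe the cells. It was at 368, 10, 471 and 386 UMIs in the 4 young cells, at 13 to 705 with a median of 336 in the 56 aged cells, and at 10 to 1046 with a median of 413 in the aged-GA cells. The ranges overlapped, with the highest counts in aged-GA cells. Immunoglobulin RNA, which the rule did not use, made up 3.20% to 45.7% of the UMIs in young cells with a median of 19.9%, 1.70% to 54.4% in aged cells with a median of 22.2%, and 1.92% to 62.6% in aged-GA cells with a median of 23.5%. For comparison, B cells were taken as barcodes with Cd79a, Cd79b and Ms4a1 and no Cd3 UMI (the B reference, 1704, 3462 and 4459 cells), and their medians were 1.63%, 1.69% and 1.70%. The plasma cells also had high totals, with medians of 17135.5, 17063 and 22795.5 UMIs against 3497, 3180 and 3831 in the B reference. The rule asked for fixed numbers of UMIs, which shallow barcodes reach less easily, so the high totals can follow in part from the rule. By the rule itself, these few cells held nearly all Jchain RNA of a library. Of all Jchain UMIs in the filtered barcodes, 98.8% lay in the 4 young, 98.0% in the 72 aged and 97.6% in the 52 aged-GA cells.

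**Figure D3:**
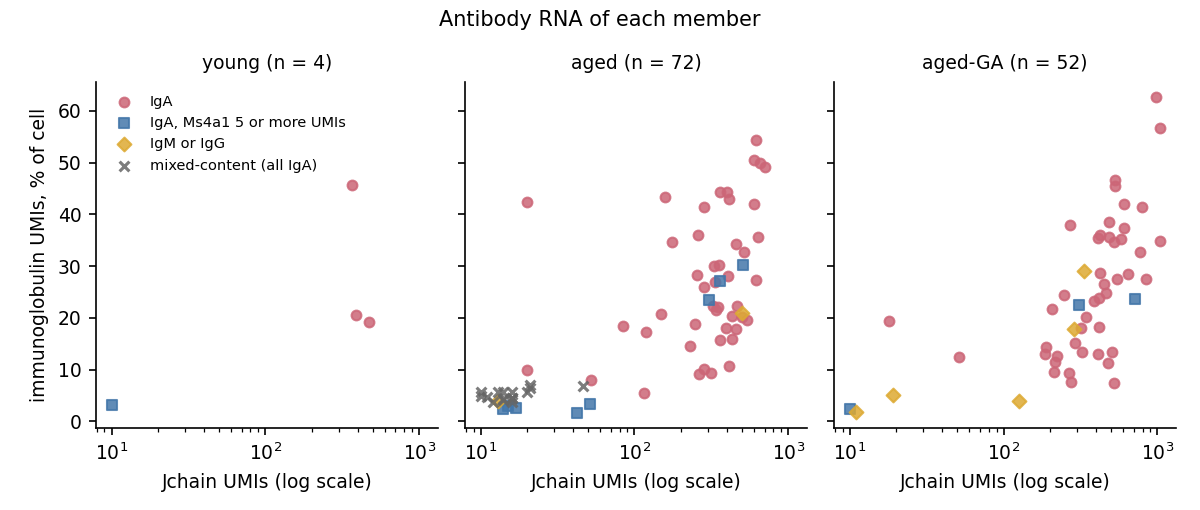
Each point is 1 plasma cell, with its Jchain UMIs on a log axis and the share of its UMIs from immunoglobulin genes in percent, in a panel per library and with markers for isotype, B cell RNA and mixed content. Most cells form a cloud at 100 or more Jchain UMIs, while the mixed-content barcodes sit at 10 to 46 UMIs and 3.70% to 6.97%.

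Nearly all plasma cells found by the rule were of IgA type. The rule required Jchain, the chain that joins IgA and IgM, so cells low in Jchain could not enter. The share of IgA can therefore follow in part from the rule, and barcodes with fewer Jchain UMIs were not typed. A cell was given the isotype whose constant gene held at least 70% of its heavy chain UMIs, with at least 10 UMIs. By this call IgA was carried by 4 of 4 young cells, 70 of 72 aged cells (97.2%) and 47 of 52 aged-GA cells (90.4%, 79.0 to 96.8%), and 54 of 56 aged cells remained IgA without the mixed-content barcodes. The other aged cells were 1 of IgM, with 13 Jchain UMIs, and 1 of IgG1, with 1492 Ighg1 and 498 Jchain UMIs. The other aged-GA cells were 2 of IgM with 11 and 19 Jchain UMIs, 1 of IgG1 with 1736 Ighg1 UMIs, 1 of IgG2b with 512 Ighg2b UMIs, and 1 of IgG2c with 992 Ighg2c UMIs. The IgM cells thus lay near the Jchain threshold, whereas the 4 IgG cells had 126 to 498 Jchain UMIs. The IgG2b cell was also the largest of all plasma cells at 63310 UMIs and held 44 Cd3 UMIs. The aged-GA IgM cell with 11 Jchain UMIs was marked by Scrublet, held 15 Cd3 UMIs and had 1.92% immunoglobulin RNA. In the B reference, by contrast, Ighm held 78.9%, 76.0% and 76.0% of heavy chain UMIs and Igha 0.0471%, 1.60% and 1.04%.

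Igha, the IgA heavy chain constant gene, was also seen at a low level in cells that should lack it. In T cells (2 or more Cd3 UMIs and no Cd79a, Cd79b or Ms4a1) a UMI of Igha was found in 0.12%, 10.8% and 12.3% of cells from young, aged and aged-GA mice, and one of Jchain in 0.12%, 2.65% and 3.82%, at median depths of 5004, 4645 and 5734 UMIs. In the B reference the shares were 0.646%, 11.6% and 13.8% for Igha and 0.117%, 3.61% and 4.49% for Jchain. The T cell values were read as background. In B cells the share with Igha lay above it in each library although the depth was lower. The intervals of B and T cells overlapped in aged (10.6 to 12.8% against 9.41 to 12.2%) and aged-GA mice (12.8 to 14.8% against 11.1 to 13.6%). As CPM of all UMIs, Igha was at 1.61 against 0.299 in young, 65.5 against 21.1 in aged and 42.3 against 21 in aged-GA mice. Which B cells carried this RNA was not tested. The T cell share moved with the share of plasma cells from young to aged libraries, and not from aged to aged-GA.

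The light chain was kappa in all 4 young cells, in 68 of the 72 aged and in 50 of the 52 aged-GA cells, lambda in 0, 3 and 1, and undecided in 0, 1 and 1. In IgA kappa cells without mixed content, Igkc UMIs per Igha UMI had a median of 5.39 in young (3.16 to 10.1), 3.79 in aged (1.19 to 8.19) and 3.38 in aged-GA cells (0.938 to 9.69). Igha UMIs per Jchain UMI had medians of 1.79, 2.76 and 2.86. The ranges of both ratios overlapped in all 3 libraries.

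The variable segments were diverse. Both a heavy and a light segment could be called in 80 cells, 3 young, 41 aged and 36 aged-GA, and these cells had 73 different pairs. Only 7 pairs occurred in 2 cells, none in more, and 4 of those pairs joined an aged and an aged-GA cell, such as Ighv1-81 with Igkv1-117. Cells with the same pair of segment names need not share a clone, because a count table holds no junction sequence. Heavy segments numbered 29 in 43 aged and 25 in 39 aged-GA cells with a call. The commonest were Ighv1-55, which led in 1 aged and 6 aged-GA cells, and Ighv1-81, which led in 2 and 5. Among light segments Iglv1 was called in 11 aged and 12 aged-GA cells, yet 11 and 10 of these were kappa cells by their constant gene. Their median was 31 and 27.5 Iglv1 UMIs beside 3809 and 5338 Igkc UMIs, so an Iglv1 call in these cells did not go with a lambda chain. The 73 pairs include pairs with an Iglv1 call, which need not name the light chain of the cell. Among the pairs that joined an aged and an aged-GA cell, these were Ighv1-81 with Iglv1 and Ighv8-8 with Iglv1. The cells of these pairs were kappa by their constant gene, except the aged-GA cell of the former. Reads of near-identical variable segments can be split or lost in counting, so the names of segments are uncertain.

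Many genes of the secretory machinery were higher in plasma cells than in B cells. Levels were compared as log2 of CPM plus 1, where CPM was taken over UMIs that were not of immunoglobulin genes, and a gene was called when it differed at least 4-fold from the B reference in the same direction in all 3 libraries. Without the mixed-content barcodes 205 of 11679 genes (1.76%) were called higher and 210 (1.8%) lower, and with them 204 of 11683 (1.75%) and 185 (1.58%). The counts moved to 99 higher and 58 lower at a pseudocount of 10 CPM, and to 75 and 343 without the Cd3-positive cells, where 2 young cells were left. Of 33 genes for folding and degradation in the ER, 20 were higher and 0 lower, with medians of 2.53, 2.76 and 2.81 in young, aged and aged-GA cells. The medians over all genes were -1.03, -0.35 and -0.22, and that of young cells became 1.71 when the 6104 genes at 0 there were set to 3 UMIs, while the median of the folding genes stayed at 2.53. Of 33 genes for translocation into the ER, glycosylation and export, 19 were higher and 0 lower, with medians of 2.21, 2.48 and 2.31. The young values rest on 4 cells, in which 1 UMI was worth 19.2 CPM.

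Among the folding genes, Hsp90b1, which encodes the ER chaperone Grp94, was at 4867, 7515 and 6664 CPM in young, aged and aged-GA plasma cells and at 343, 339 and 291 CPM in the B reference. Sdf2l1, a partner of the chaperone BiP, was at 596, 701 and 671 CPM against 25.6, 27.2 and 27.0. Manf, a secreted ER stress protein, was at 1769.8, 1963 and 1982 CPM. All 3 genes lay far above B cells in every library and close to each other between aged and aged-GA mice. Hspa5, which encodes BiP itself, was at 1077, 2168 and 2184 CPM against 371, 302 and 294, and its log2 ratio in young cells, 1.53, missed the 4-fold limit, whereas those in aged and aged-GA cells were 2.84 and 2.89. The disulphide isomerase genes Pdia4, Pdia6 and Txndc5 were all called, with Pdia6 at 3.25, 3.23 and 3.21 on the log2 scale. Edem1, which marks misfolded glycoproteins for removal, was at 4.43, 4.02 and 4.40. Among the genes of translocation and export, Sec61b, a subunit of the protein channel of the ER, was at 1981, 2729 and 2366 CPM, and Sec11c, a subunit of the signal peptidase, at 2366, 2631 and 2536 CPM. Lman1, the cargo receptor that carries glycoproteins to the Golgi, had log2 ratios of 4.8, 3.98 and 4.15. Among the genes of this list that were not called were St6gal1, the sialyltransferase, at -0.59, 1.12 and 1.05, and Man1a, a Golgi mannosidase, at -2.65, -0.78 and -0.94.

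**Figure D4:**
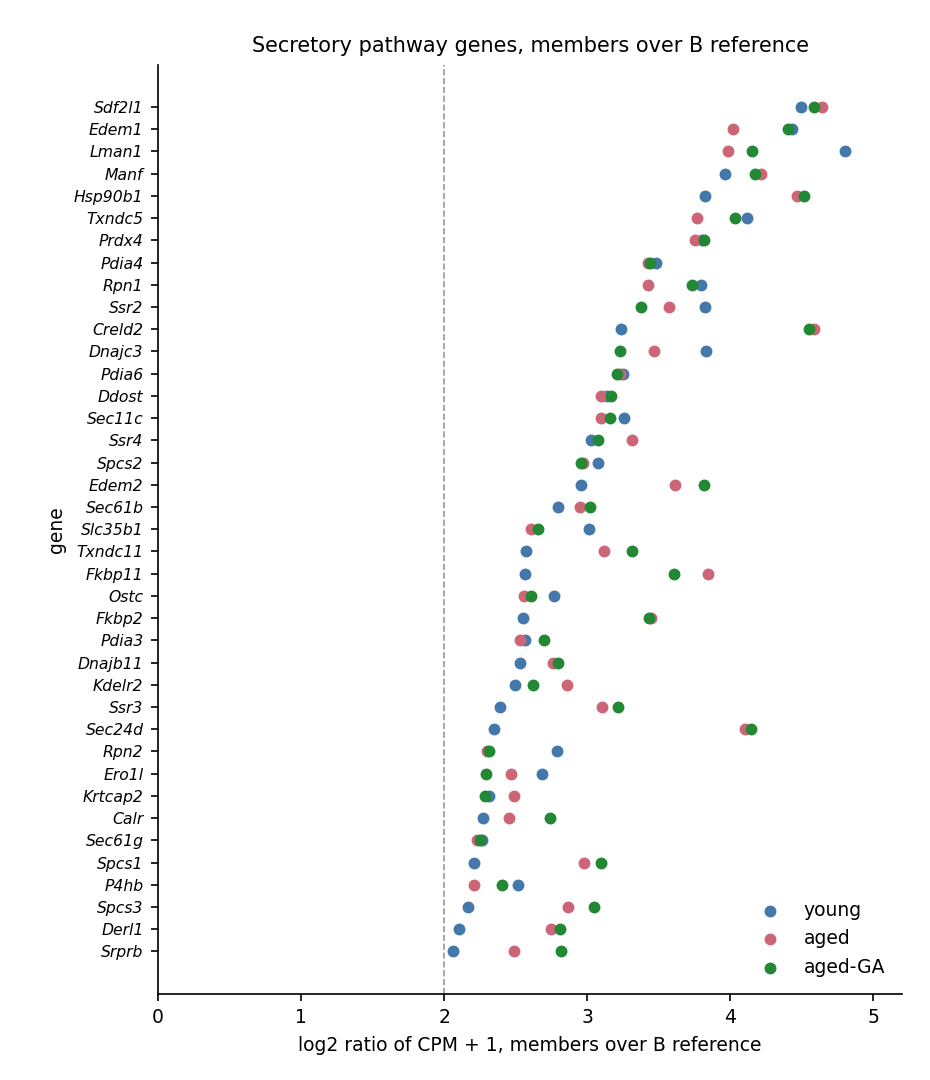
Log2 ratio of CPM plus 1 in plasma cells over the B reference for the 39 called genes of ER folding, degradation, translocation, glycosylation and export, without mixed-content barcodes, with 1 point per library and a dashed line at 4-fold. The points of aged and aged-GA mice lie close together for most genes, and Sdf2l1 lies at 4.49, 4.64 and 4.58 in young, aged and aged-GA mice.

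Many ER chaperone genes carry the ER stress response element, to which the factors Atf6 and Xbp1 are known to bind, so the promoters of the lists were searched for it. The element was searched as CCAAT, any 9 bases and CCACG, and the shorter unfolded protein response element as TGACGTGG, on both strands, in the 250 bases before and 50 after each start site of the RefSeq annotation on GRCm38.p6. The first was found in 37 of 27025 genes (0.137%) and in 8 of the 28 folding genes that had a promoter in the table (28.6%), which were Calr, Canx, Creld2, Dnajc3, Hsp90b1, Hspa5, Pdia6 and Syvn1. It began 44 to 212 bases before the start, and 5 of the 8 genes were called higher than in the B reference, beside 20 of the 33 in the whole list. It was found in 0 of 25 genes for translocation, 0 of 21 genes of plasma cell identity and 0 of 17 B cell genes with a promoter. The second was found in 193 genes (0.714%), among them 2 of the 28 folding genes, Txndc11 and Txndc5, 1 of the 25 for translocation and export, Sec24d, 1 of the 21 identity genes and 0 of the 17 B cell genes. A match of letters is a description and does not show that a factor binds there. The 250 bases before the start are shown for 4 of the genes because they combine a match with a high level in plasma cells, 5′ to 3′ on the strand of the gene, with the match in capitals. Hspa5 is at chr2:34771840-34772089 (plus strand), Hsp90b1 at chr10:86705445-86705694 (minus strand, with 2 matches, the second on the opposite strand), Creld2 at chr15:88819396-88819645 (plus strand, match on the opposite strand) and Pdia6 at chr12:17266339-17266588 (plus strand).
Hspa5: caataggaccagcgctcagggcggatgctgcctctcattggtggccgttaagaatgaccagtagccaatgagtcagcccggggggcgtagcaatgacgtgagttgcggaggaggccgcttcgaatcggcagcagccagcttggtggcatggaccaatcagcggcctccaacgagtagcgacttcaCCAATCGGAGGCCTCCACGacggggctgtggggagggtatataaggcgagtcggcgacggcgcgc
Hsp90b1: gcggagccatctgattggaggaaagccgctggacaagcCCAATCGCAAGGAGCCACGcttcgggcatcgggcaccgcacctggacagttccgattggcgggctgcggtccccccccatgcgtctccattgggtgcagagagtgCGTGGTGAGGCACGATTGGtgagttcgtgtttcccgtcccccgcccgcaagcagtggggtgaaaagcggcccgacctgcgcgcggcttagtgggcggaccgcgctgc
Creld2: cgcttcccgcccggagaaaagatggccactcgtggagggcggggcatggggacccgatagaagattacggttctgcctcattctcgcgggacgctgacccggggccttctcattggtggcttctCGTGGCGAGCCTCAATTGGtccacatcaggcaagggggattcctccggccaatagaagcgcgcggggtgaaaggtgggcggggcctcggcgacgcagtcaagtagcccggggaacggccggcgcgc
Pdia6: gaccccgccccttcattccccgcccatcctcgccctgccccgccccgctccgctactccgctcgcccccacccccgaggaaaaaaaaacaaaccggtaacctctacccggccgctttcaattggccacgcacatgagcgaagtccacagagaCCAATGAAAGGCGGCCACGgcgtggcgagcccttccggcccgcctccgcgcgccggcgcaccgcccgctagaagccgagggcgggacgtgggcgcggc
Each of these 4 genes, chosen in part for a high level, was higher in plasma cells than in the B reference in every library. Creld2, a disulphide isomerase-like ER protein, was at 3.23, 4.58 and 4.55 on the log2 scale, while Hspa5, at 1.53 in young cells, was not called.

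Genes of plasma cell identity were next, and the rule used some of them. Mzb1, an ER protein that helps to assemble antibody, was at 4905, 5875 and 4230 CPM in young, aged and aged-GA plasma cells against 313, 336 and 344 CPM in the B reference. Xbp1, the transcription factor of the secretory programme, was at 1116, 865 and 1206 CPM, Derl3, an ER degradation factor, at 423, 480 and 475 CPM, and Tnfrsf17, the survival receptor BCMA, at 731, 676 and 585 CPM. Tnfrsf17 was nearly absent from the B reference, at 0, 1.34 and 0.303 CPM. Of 24 further identity genes, 10 were called higher and 1 lower, against 1.76% and 1.8% of all genes. Prdm1 was at 173, 113 and 194 CPM against 6.54, 5.97 and 5.96, Irf4 at 250, 185 and 190 CPM against 23.0, 29.6 and 26.2, and Eaf2, a partner of the elongation factor Ell2, at 327, 693 and 670 CPM against 13.2, 10.0 and 9.14. Sdc1, which encodes the plasma cell surface protein CD138, was at 57.7, 82.8 and 68.5 CPM and was detected in 29 of 56 aged and 29 of 52 aged-GA cells. Cd38, a surface enzyme, was the gene called lower, at 0, 18.1 and 17.7 CPM against 84.1, 118 and 124. Its young value was 0, where 3 UMIs stand for 57.7 CPM, so a 4-fold drop was not measured in young cells.

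Among genes with at least 50 CPM in each library that the rule had not used, the 10 with the highest ratio over the B reference were Ccr10, Cd3g, Cd3d, Pycard, Cd28, Nacc2, Eaf2, Gm5547, Sdf2l1 and Ctla4. Cd3g and Cd3d were at 0 in the B reference by its definition, which makes their ratio uninformative. Pycard, which encodes the inflammasome adaptor ASC, was at 2751, 3379.8 and 3615 CPM against 72.4, 105 and 75.9 and was detected in 98.2% of aged and all aged-GA cells. Cd28 and Ctla4, receptors best known from T cells, were also found in plasma cells that held fewer than 2 Cd3 UMIs. There Cd28 was detected in 25 of 43 aged cells, at 135 CPM, and in 27 of 34 aged-GA cells, at 278 CPM. Ctla4 was detected in 30 of 43 and 31 of 34 of these cells, at 165 and 195 CPM. In the Cd3-positive cells Cd28 was at 351 and 250 CPM and Ctla4 at 236 and 161 CPM. So RNA of Cd28 and Ctla4 was present on both sides of the Cd3 limit.

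Of the receptors for mucosal homing, Ccr10 was detected in most cells of each library without mixed content (50% of aged cells with it) and Ccr9 in a minority. Ccr10, the receptor for the epithelial chemokines Ccl27 and Ccl28, was at 192, 125 and 129 CPM in young, aged and aged-GA plasma cells and at 0, 0.224 and 0 CPM in the B reference, and was detected in 75%, 60.7% and 71.2% of cells. Ccr9, the receptor for the small intestinal chemokine Ccl25, was at 115, 15.5 and 45.7 CPM and was detected in 1 of 4, 5 of 56 and 16 of 52 cells, the last at the greatest depth. Itga4 and Itgb7, which together form the gut homing integrin, were at 654, 759 and 649 CPM and at 231, 438 and 457 CPM, each above the B reference in every library. Of 20 genes of homing and adhesion, 4 were called higher, namely Ccr10, Ccr9, Cxcr3 and Itgam, against 1.76% of all genes. Another 2 were called lower, among them Cxcr4, against 1.8% of all genes. All 6 young Ccr9 UMIs lay in 1 cell that also held 10 Cd3 UMIs, so the Ccr9 call is lost without the Cd3-positive cells. Cxcr4, the receptor for the bone marrow chemokine Cxcl12, was at 38.5, 55.6 and 53.0 CPM against 324, 330 and 294.

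B cell genes were low but not gone. Of 28 genes, 0 were called higher and 14 lower, against 1.8% of all genes lower. The medians were -2.45, -2.96 and -2.79 on the log2 scale, beside -1.03, -0.35 and -0.22 over all genes. The median in young cells was -1.73 with the 7 genes at 0 there set to 3 UMIs. The count of 14 kept these genes at 0, and a young value of 0 gives no measured fold. The B reference was defined by Cd79a, Cd79b and Ms4a1, which are in the list, so their comparison is uninformative, and none of the 3 is among the 14. Ebf1, a transcription factor of the B lineage, was at 135, 132 and 167 CPM against 1986, 1640.4 and 1648, and H2-Aa, an MHC class II chain, at 404, 410 and 539 CPM against 3932, 3299.8 and 4159. Pax5, which holds the B cell programme in place, was at 57.7, 16.8 and 28.0 CPM against 192, 334 and 330. Cd79b, which carries the signal of the B cell receptor, was at 635, 970 and 824 CPM against 1392, 1432 and 1492.

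B cell RNA was unevenly spread over the cells. Ms4a1, which encodes CD20, reached 5 or more UMIs in 1 young, 9 aged and 5 aged-GA cells without mixed content. These cells had a median of 42 Jchain UMIs in aged and 19 in aged-GA mice, against 354 and 417 in the rest, and 3.39% and 5.09% of their UMIs were from immunoglobulin genes at the median, against 22.3% and 24.4%. In the same order Cd74, the class II invariant chain, was at 8183 and 8813 CPM against 2449.9 and 3069, and Xbp1 was at 278 and 361 CPM against 979 and 1288. Hsp90b1 was at 3157 and 1236 CPM against 8361 and 7195. These cells held 16.3% of the aged and 8.91% of the aged-GA UMIs outside the immunoglobulin genes, but 43.0% and 21.3% of the UMIs of the listed B cell genes other than Ms4a1. The only such young cell, with 10 Jchain UMIs, held 27.9% and 68.6% of these, so the young levels of B cell genes rest largely on 1 cell. The cells with Ms4a1 were not alike, since 3 of the 9 aged and 2 of the 5 aged-GA cells had 307 to 718 Jchain UMIs and more than 20% immunoglobulin RNA. All 3 IgM cells were among the other cells with 5 or more Ms4a1 UMIs. Siglech, a marker of plasmacytoid dendritic cells, had 1 UMI in 1 plasma cell.

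Few cells held many genes of the cell cycle at equal depth. Cells were thinned to 1000 UMIs outside the immunoglobulin genes and counted when they then held at least 5 of 46 genes of S and G2/M phase. This left 0 of 4 young, 2 of 71 aged cells (2.82%, 0.343 to 9.81%) and 4 of 52 aged-GA cells (7.69%, 2.14 to 18.5%), and 1 aged cell was too shallow to be thinned. Without mixed content the aged share was 2 of 55 (3.64%, 0.443 to 12.5%). The aged and aged-GA intervals overlapped, and a difference was not detectable at this number of cells. Before thinning and with mixed content kept, 75%, 37.5% and 63.5% of the cells passed, where the median cell held 17135.5, 15775.5 and 22795.5 UMIs. Without mixed content 27 of 56 aged cells (48.2%) passed before thinning, at a median of 17063 UMIs. In the B reference the thinned shares were 0 of 1704, 0 of 3460 and 3 of 4454, so such cells made up a larger part of plasma cells than of B cells in the aged and aged-GA libraries. In the T cells defined above the shares were 3 of 5004, 17 of 1920 (0.885%, 0.517 to 1.41%) and 11 of 2671 (0.412%, 0.206 to 0.736%). The interval of aged T cells lay inside that of aged plasma cells. All 6 of these plasma cells were IgA kappa, with 116 and 119 Jchain UMIs in the 2 aged cells and 214, 215, 478 and 847 in the 4 aged-GA cells. Mki67, the Ki-67 proliferation antigen, was at 42 and 9 UMIs in the aged and at 12, 11, 14 and 14 UMIs in the aged-GA cells. Mki67 was also detected outside the counted cells, in 30 of the other 54 aged and 29 of the other 48 aged-GA cells without mixed content, which held 51 and 110 Mki67 UMIs. The 2 aged-GA cells with the most Mki67, at 31 and 25 UMIs, were not counted, since 4 and 2 genes were left after thinning. They were deep, with 63310 and 44107 UMIs, and held 44 and 16 Cd3 UMIs. Of the 4 counted aged-GA cells, 2 held 10 and 6 Cd3 UMIs. Without the Cd3-positive cells but with mixed content kept, the shares were 2 of 53 aged (3.77%) and 2 of 34 aged-GA cells (5.88%).

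Aged-GA and aged plasma cells had similar levels of most genes. Of 5446 genes with at least 30 UMIs in both libraries together, 120 (2.2%) were at least 2-fold higher and 69 (1.27%) at least 2-fold lower in aged-GA cells without the mixed-content barcodes, which is 189 (3.47%) either way. With these barcodes the counts were 132 (2.37%) and 84 (1.51%) of 5574, or 216 (3.88%) either way. With them the balance turned to 32 higher and 39 lower at a pseudocount of 10 CPM, and to 11 and 21 among genes with at least 100 UMIs. The median log2 ratio over all genes was 0.07. Neither the 33 genes of ER folding, with a median of -0.01, nor the 32 counted genes of translocation and glycosylation, with a median of -0.07, held a gene past 2-fold, and with the mixed-content barcodes the medians were 0.07 and 0.02, again with none. Hsp90b1 was at -0.17, Hspa5 at 0.01 and Jchain at -0.05 on the log2 scale.

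Without mixed content 4 of the 5 erythroid genes were lower in aged-GA cells, but 0 of 5 once the Cd3-positive cells were left out too, and 4 of 22 B cell genes were higher. Genes of G2/M phase had the highest number past 2-fold among the lists. Of these, 9 of 15 counted genes were higher and 0 lower in aged-GA cells, with a median of 1.16, against the 2.2% of all genes that were higher. Of the 15 counted S phase genes, 2 were higher and 0 lower, with a median of 0.59. Ube2c, a ubiquitin-conjugating enzyme of mitosis, had 34.9 CPM in the aged cells against 144 CPM with GA, with 64.7% of its aged-GA UMIs in 1 cell, and Ccnb2, a mitotic cyclin, was at 11.6 and 40.5 CPM. Mki67 was at 132 and 167 CPM. Without each gene's richest aged-GA cell, which can only lower the ratio, 4 of 15 genes were higher, with a median of 0.61. With mixed content kept, 9 of 11 were higher without the largest cell of each library (median 1.74), and 3 of 6 without the cells counted as holding cell cycle genes (median 0.97). The largest aged cell was 1 of the 2 aged cells so counted and held 42 Mki67 UMIs, so leaving it out lowers the aged level of these genes. The largest aged-GA cell, left out in the same setting, held 31 Mki67 UMIs. Without both the mixed-content barcodes and the Cd3-positive cells 2 of 8 counted G2/M genes were higher, with a median of 0.29, and the S phase median was -0.40, with 0 of 9 higher and 1 lower.

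Of 8 counted interferon response genes 0 were at least 2-fold higher and 3 lower in aged-GA cells, against 1.27% of all genes lower, with a median of -0.55, and without both doubtful sets it was 3 of 7 with a median of -0.36. The 3 genes were Isg15, a ubiquitin-like protein, at 232 CPM in the aged cells against 72.7 CPM with GA (log2 ratio -1.66, -2.09 to -1.27), and Ifitm2 and Ifitm3, which block virus entry, at 54.3 and 9.35 CPM and at 309 and 139 CPM. However, 1 aged cell held 71.4% of the aged UMIs of Ifitm2 and 1 held 33.5% of those of Ifitm3. Without each gene's richest aged cell, which can only raise the ratio, 1 of 8 genes passed 2-fold. The log2 ratios were then -0.71 for Ifitm2, -0.60 for Ifitm3 and -1.32 for Isg15. In the B reference Isg15 was at 16.1 and 6.77 CPM and Ifitm3 at 348 and 102 CPM, so both genes were also lower there. Ifi27l2a, an interferon-induced mitochondrial protein and the most abundant of the list, was at 2609 and 3709 CPM (log2 ratio 0.51), and the summed level of the 14 listed genes was 3822 and 4402 CPM.

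**Figure D5:**
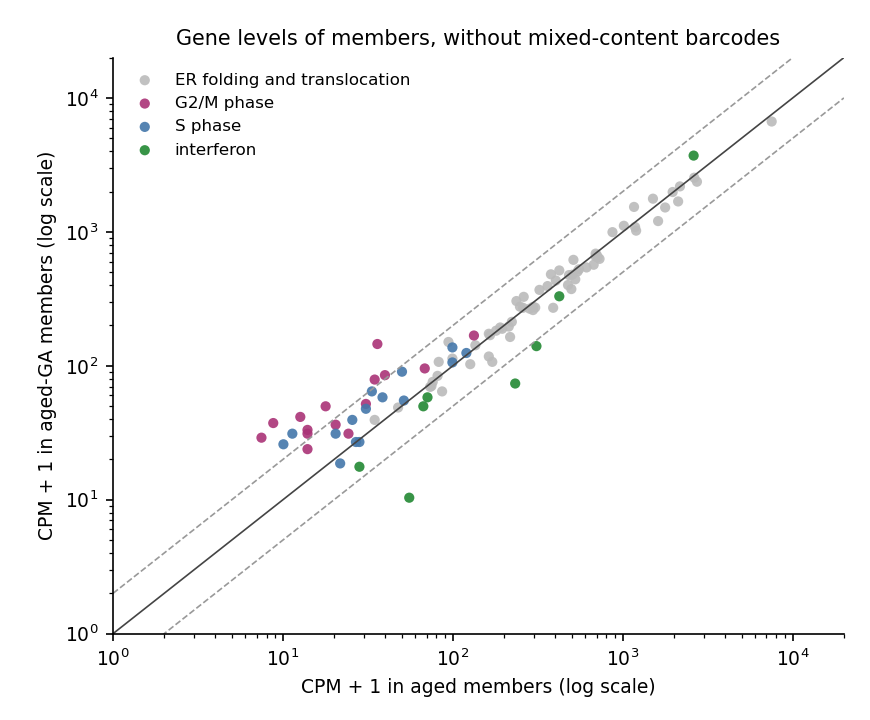
CPM plus 1 in aged against aged-GA plasma cells without mixed-content barcodes, both axes logarithmic, for the counted genes of 4 groups, with a solid line of equality and dashed lines at 2-fold. The ER genes lie along the line, while 9 G2/M genes lie above and 3 interferon genes below the 2-fold lines.

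Among genes with a UMI in at least 20% of cells of the library where they were higher, those with the largest ratios in aged-GA over aged cells without mixed content were Klf4, Bach2, Ube2c, H1f0, H2-Q10, Stard4, Prkcq and Ccnb2. Bach2, a repressor that delays plasma cell formation, was at 10.3 and 47.8 CPM (log2 ratio 2.10, 1.11 to 3.50) and was detected in 7 of 56 and 24 of 52 cells. Klf4, a transcription factor linked to growth arrest, was at 5.17 and 34.3 CPM and was detected in 3 and 12 cells, and its log2 ratio was 2.51 without and 1.23 with the mixed-content barcodes. Prkcq, a kinase of T cell receptor signalling, was at 10.3 and 36.3 CPM, and its log2 ratio turned from 1.72 to -1.48 when the Cd3-positive cells were left out too. The 8 with the lowest ratios by the same limit were Lyz2, Ranbp9, Isg15, Mt2, Lmo2, S100a4, Clec2d and Vkorc1. Lyz2, the lysozyme of macrophages and neutrophils, was at 357 and 34.3 CPM, with 86.2% of its aged UMIs in 1 cell, and Mt2, a metallothionein, was at 157 and 53.0 CPM, with 52.1% in 1 cell. Ranbp9, a scaffold protein, was at 40.1 and 11.4 CPM and was spread over 26 aged and 9 aged-GA cells. With the mixed-content barcodes the lowest genes were Lyz2, Retnlg, Wfdc17, Ifitm2, Il1b, Cxcl2, Ccl6 and Ifitm1, most of which are known from neutrophils and monocytes. Of these, Cxcl2, a neutrophil-attracting chemokine, was at -2.61 with the mixed-content barcodes and at -0.13 without them, and Il1b at -2.96 and -0.54. The highest genes with these barcodes included Nol11, Tmsb15b2 and Ccr9 beside 5 of those named above.

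Aged and young plasma cells could be compared only coarsely, since the 4 young cells held 51983 UMIs outside the immunoglobulin genes. Of 3181 counted genes, 806 (25.3%) were at least 2-fold higher and 176 (5.53%) at least 2-fold lower in aged cells without mixed content, or 982 (30.9%) either way. With mixed content the counts were 820 (24.2%) and 211 (6.23%) of 3386, or 1031 (30.4%) either way. These counts depended on the minimum number of UMIs, and those for genes with at least 100 UMIs are given with the processing. The genes with the largest ratios upward, Lyz2, Ifitm3, Isg15, S100a4 and Itpr3, had no UMI in the young cells. Set against 3 UMIs over the young cells, Lyz2 was at least 6.19-fold, Ifitm3 at least 5.36-fold, Isg15 at least 4.01-fold, S100a4 at least 3.09-fold and Itpr3, a calcium channel of the ER, at least 2.78-fold higher. However, 1 aged cell held 86.2% of the Lyz2 UMIs, and without it Lyz2 was at 50.4 CPM, below the 57.7 CPM that 3 UMIs stand for in the young cells, so no fold was left. Without its richest cell S100a4 was at 115 CPM in place of 178 CPM. Itpr3 was detected in 40 of 56 aged cells, at 160 CPM, and no aged cell held more than 7.26% of its UMIs. Downward, Med11, Ccs, Basp1 and Pnrc2 were among the genes that stood out, on 7 to 11 young UMIs each, of which 1 young cell held 81.8% for Basp1 and 57.1% for Pnrc2. Of the ER folding genes 11 of 33 were higher and 0 lower in aged cells, with a median of 0.40 against 0.21 over all 3181 genes.

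RNA of other cell types remained in some cells once the mixed-content barcodes were set aside. Haemoglobin was at 15.2% to 40.9% of the UMIs in 5 of 56 aged cells and at 17.4% and 17.5% in 2 of 52 aged-GA cells, against medians of 0.22% and 0.177% over all cells. S100a8, S100a9 and Lyz2 together had 135 and 241 UMIs in 2 other aged cells, the latter with 238 of Lyz2, and 504 UMIs in 1 other aged-GA cell. S100a8 and S100a9, the abundant neutrophil pair, and the other 4 listed neutrophil genes summed to 0, 326 and 595 CPM in young, aged and aged-GA cells. The 5 listed erythroid genes, led by Hbb-bs, summed to 750.2, 30099.7 and 12274 CPM against 6199.9, 34830.1 and 24492 CPM in the B reference. The 8 monocyte genes, led by Cst3, summed to 866, 1375 and 939.7 CPM, and the 5 NK cell genes, led by Gzma, to 19.2, 188 and 246 CPM. The 10 T cell genes summed to 1019.6, 715 and 779.8 CPM, with Trbc2 the most abundant. The 4 basophil genes were at 0 in all plasma cells, and the 4 platelet genes summed to 0, 2.59 and 2.08 CPM. The part of these RNAs in the differences between libraries was not tested.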

How the data were processed

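For each of 3 mouse groups 1 library of PBMCs was sequenced with 10x Genomics 3′ chemistry. The authors deposited raw UMI counts per gene and barcode, which were made with Cell Ranger (5.0.0 in the matrix headers) on mm10. Quality filters, the marker rule and reference cells are given with the results. Isotype calls, exact binomial intervals and ratios of summed counts were computed with Python 3.11.15, numpy 2.4.6, scipy 1.17.1 and pandas 2.3.3, and figures with matplotlib 3.10.9. Scripts were tested on simulated data. CPM left out all 392 immunoglobulin genes.

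Ratios were log2(CPM + 1) over genes with at least 30 UMIs. Named genes were those of the lists, the 8 highest and 8 lowest in aged-GA over aged, the 5 and 5 in aged over young (in at least 20% of cells), and the 10 highest over the B reference, the rule's own genes left out. Some genes that met these rules are not reported here. Doublets were scored with Scrublet in scanpy 1.11.5; its own threshold marked 0.0179% of aged-GA barcodes, so the top 5% of scores per library were used, a choice made after seeing the data. Doublets were kept. The members and lists were chosen with earlier results of these data known. Alternatives on thresholds, pseudocount, depth and cells were tried, and those without mixed-content or Cd3-positive cells or a gene's richest cell were chosen after seeing the data. Ambient RNA was not removed.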

Additional observations from a re-analysis of the deposited data

How the results depend on the processing

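With 1 library per group no result has a replicate error, and no paired analysis was possible because there was 1 library per group. The log2 ratio of shares kept its sign under all 11 alternatives run, from 3.12 to 4.57 for aged over young and from -0.90 to -0.34 for aged-GA over aged. As percent of plasma cells plus B reference the shares were 0.234%, 2.04% and 1.15% in young, aged and aged-GA mice. Without the mixed-content barcodes the aged value was 1.59% (1.20 to 2.06%), and its interval overlapped that of aged-GA mice (0.862 to 1.51%). The aged share was 0.588% with at least 20 Jchain UMIs or without mixed-content barcodes, 0.567% without Cd3-positive cells and 0.452% without both, and the aged-GA share was 0.304% in the last 2 settings. IgA reached 87.5% of aged cells at a dominance of 90%. Without thinning and with mixed content kept, 75%, 37.5% and 63.5% of cells held cell cycle genes. For aged-GA over aged, the genes 2-fold higher and lower numbered 32 and 39 at a pseudocount of 10 CPM, 212 and 129 with the mean of per-cell CPM, and 11 and 21 with at least 100 UMIs, and 82 were higher without Cd3-positive cells and 85 without both sets. For aged over young they numbered 147 and 37 with at least 100 UMIs. Over the B reference, 99 and 58 genes passed 4-fold at a pseudocount of 10 CPM, and 75 and 343 without Cd3-positive cells, where 2 young cells were left. Prkcq reversed to -1.40 without Cd3-positive cells and -1.48 without both sets, and Cxcl2 reversed to 0.87 without both; the cause was not tested.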
